A study of Mus musculus with 8 samples.

Results

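The mitochondrial ribosomal protein genes were taken as every gene of the count table whose symbol starts with Mrpl or Mrps followed by a digit, with -ps pseudogenes left out. The rule gave 78 genes of 27179 in the table and used no measured value. By the position of their proteins in the mammalian mitochondrial ribosome, 51 belong to the large subunit and 27 to the small subunit. Mrps30 and Mrps18a were counted with the large subunit, where their proteins sit despite their names. Mrps36 was kept among the small-subunit genes by its symbol, although its product, also named Kgd4, is known as a component of the 2-oxoglutarate dehydrogenase complex.

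RNA was sequenced from 4 sorted bone marrow populations with 2 replicates each, 8 libraries in all. Control pre-proB, proB and preB cells came from Erg fl/fl mice (Rag1Cre+/+;Ergfl/fl), which carry floxed alleles of the ETS transcription factor gene Erg and no Rag1Cre allele. Erg-deficient pre-proB cells came from Rag1CreT/+;ErgΔ/Δ mice, in which Cre under Rag1 control deletes Erg from the common lymphoid progenitor on, in T as well as B lineage progenitors. Both the Cre allele and the loss of Erg therefore set these mice apart from the controls. Populations were sorted from 2 mice per genotype aged 7 to 10 weeks, as B220+ IgM- IgD- NK1.1- CD11c- cells, and CD43 and CD24 separated the stages. The gate excludes NK1.1+ and CD11c+ cells. The methods do not say which stage libraries share a mouse, and p-values measure the spread between these libraries only.

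Mitochondria make the core membrane subunits of the respiratory chain and of ATP synthase on their own ribosomes. The 12S and 16S rRNAs of these ribosomes are encoded by mitochondrial DNA, whereas all of their proteins are encoded in the nucleus, translated in the cytosol and imported. Some of the proteins have bacterial counterparts, and others are found only in mitochondria. Early B lymphopoiesis passes from the pre-proB stage to proB cells, which proliferate and rearrange the immunoglobulin heavy chain locus, and then to preB cells, which rearrange light chains.

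Erg belongs to the ETS family, whose members bind DNA around a GGAA core. GABP, another ETS factor, is known as a regulator of nuclear genes for mitochondrial proteins. The promoters of the mitochondrial ribosomal protein genes were therefore read for the letters CCGGAAG on either strand. RefSeq promoter sequences on GRCm38.p6, from 250 bases before to 50 bases after the annotated start, were found for 69 of the 78 genes. The letters occurred in 26 of these 69 promoters (37.7%), in 9.93% of all 27025 promoters and in 19.9% of the 10412 promoters of genes tested across the stages. Among the 65 promoters of cytosolic ribosomal protein genes the share was 36.9%. A match is a description of the letters and shows neither binding nor control.

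In 18 of the genes the letters lay before the start that the promoter table uses. In 3 of those the 250 bases before it held no GENCODE exon and lay outside the RefSeq gene, and of these 3 the sequences of Mrps22 and Mrpl52, which are described among the values, are shown, 5′ to 3′ on the strand of the gene and ending at the base before the start, with the searched letters in capitals.
Mrps22, chr9:98601680-98601929, minus strand: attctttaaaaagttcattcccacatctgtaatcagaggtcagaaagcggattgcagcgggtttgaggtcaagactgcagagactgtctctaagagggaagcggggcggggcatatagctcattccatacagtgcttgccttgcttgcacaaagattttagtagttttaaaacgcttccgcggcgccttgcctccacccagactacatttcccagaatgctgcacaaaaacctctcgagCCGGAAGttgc
Mrpl52, chr14:54426659-54426908, plus strand: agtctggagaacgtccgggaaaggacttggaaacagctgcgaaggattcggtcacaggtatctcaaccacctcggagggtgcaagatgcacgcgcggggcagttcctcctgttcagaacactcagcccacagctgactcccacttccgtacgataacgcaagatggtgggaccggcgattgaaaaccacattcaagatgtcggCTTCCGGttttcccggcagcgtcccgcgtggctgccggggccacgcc
Between the letters and the start lay 4 bases in Mrps22 and 40 in Mrpl52. They stood as CCGGAAG in Mrps22 and as the reverse complement in Mrpl52.

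Letters associated with other factors were counted in the same windows on both strands. ATGGCGGC, a form of the YY1 motif, occurred in 12 of the 69 promoters (17.4%) against 2.61% of all promoters and 5.56% of those of tested genes. CACGTG, the E-box bound by Myc among others, occurred in 5 (7.25%) against 8.09% and 11.6%. Neither overlapped a CCGGAAG match in the 26 promoters.

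Library totals lay between 15565381 and 18457632 counts, so that 3 counts corresponded to between 0.154 and 0.194 CPM, the count scaled to the TMM-normalised size of its library. Erg itself measured 2.50 and 2.58 CPM in the Erg-deficient libraries, below every control library, where it measured 69.1 and 25.3 (pre-proB), 144 and 127 (proB) and 19.6 and 28.7 (preB). The 8 B lineage markers summed to 4299 to 6143 CPM in proB and preB and to 1476 and 762 in the control pre-proB libraries. In the Erg-deficient libraries these 8 markers summed to 394 and 392 CPM. Against control pre-proB, 6 of the 8 were called lower there and 2 were not called, where 0.946% of all genes were called lower. Pax5, 1 of the 8, was near 0 in the Erg-deficient libraries, at 0.373 and 0.129 CPM. The 5 plasmacytoid dendritic cell markers summed to 8628 to 10286 CPM in the 4 pre-proB libraries of both genotypes and to 403 to 753 in proB and preB. Siglech alone, which defines those dendritic cells, was at 3825 to 4507 CPM in pre-proB and at 11.2 to 56.5 in the later stages. Proliferation genes, 15 in number, summed to 1789 to 2004 CPM in pre-proB, 8258 to 8506 in proB and 5192 to 6060 in preB. All 5 dendritic cell markers were called lower in proB than in pre-proB, where 36.8% of all genes were called lower. In bulk RNA, fewer cells of a type and less RNA per cell cannot be told apart, and the part of these other cells in the stage results was not tested.

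The filter, a level of 0.5 CPM or more in 2 or more libraries, was passed by 77 of the 78 genes. The exception was Mrpl36, the counterpart of bacterial L36, with 0 to 3 counts in each library. Its transcript was thus at or near the detection limit at this depth. Mrpl36 (chr13:73328503-73332178, GRCm38, plus strand) starts 29 bases from Ndufs6, a gene of respiratory complex I on the opposite strand, and shares 2.58% of its exon bases with it.

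The mitochondrial ribosomal protein genes together took 0.204 and 0.201% of the counts of the control pre-proB libraries and 0.198 and 0.209% of the Erg-deficient ones. Their share was higher in proB, at 0.311 and 0.322%, and between these in preB, at 0.241 and 0.259%. Their summed level was 2054 ± 20.9 CPM (SD, n = 2) in control pre-proB, 3013 ± 59.9 in proB, 2468 ± 108 in preB and 2132 ± 88.1 in Erg-deficient pre-proB. The control stages did not overlap, with proB highest, preB in the middle and pre-proB lowest, whereas control and Erg-deficient pre-proB were adjacent, at 2039 to 2069 and 2070 to 2194. With 2 libraries a group, the smallest two-sided p of an exact permutation test is 0.33, so no test of these sums was made. Small-subunit genes held 28.0 to 29.6% of the summed level in every library, the lowest of them in preB.

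**Figure D1:**
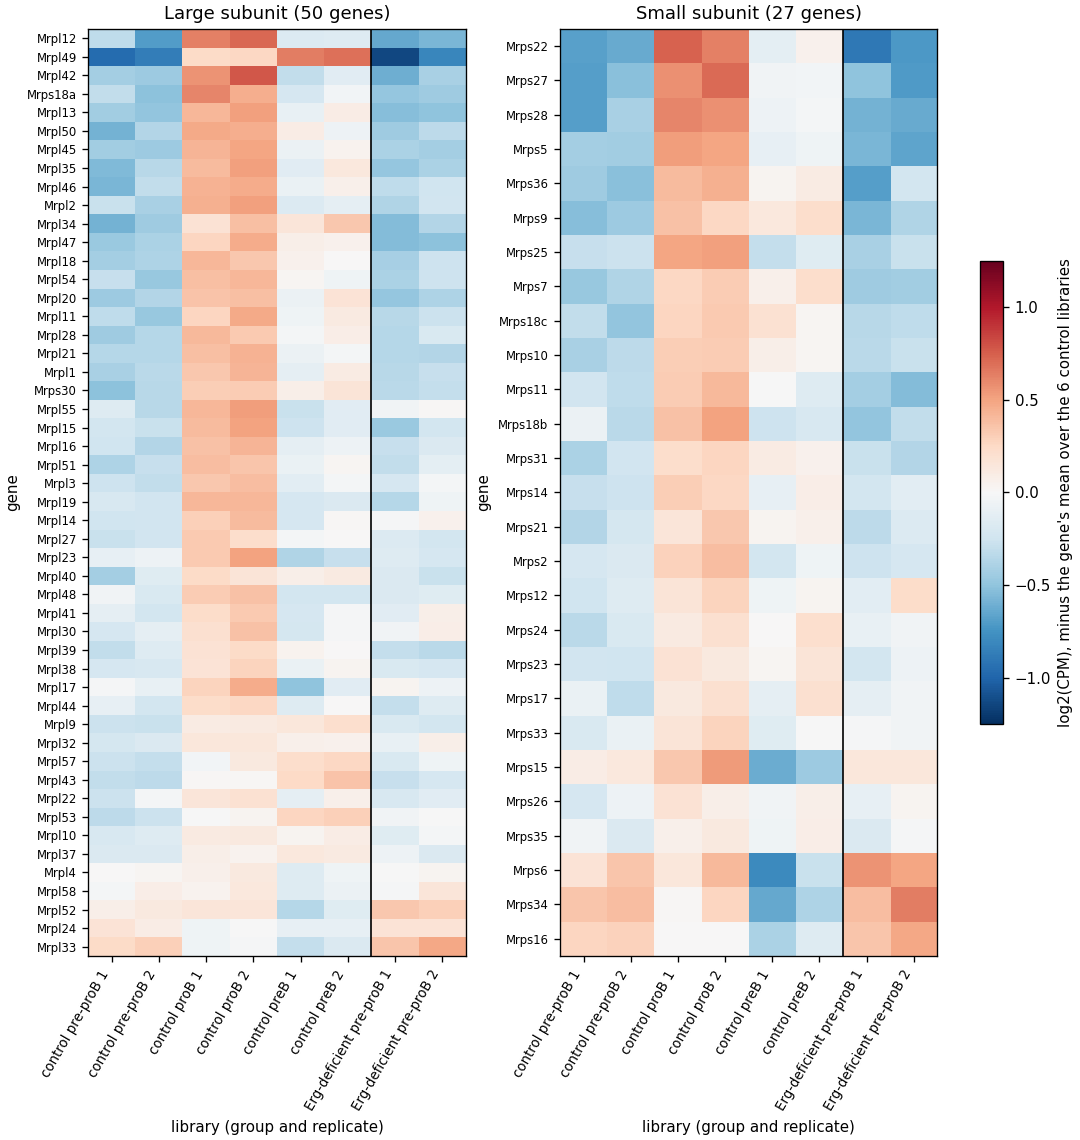
Heat maps of the 50 large-subunit and 27 small-subunit genes tested, with 1 row per gene and 1 column per library. Colour is log2(CPM) minus the gene's mean over the 6 control libraries, and rows are ordered by the log2 fold change of proB against pre-proB, so that the 67 genes with their highest control mean in proB show red in the proB columns.

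Per length, the genes covered a wide range. Mean level over the 8 libraries, as FPKM (CPM per kilobase of annotated exon), had a median of 18.6 over the 77 genes tested, with quartiles at 11.4 and 31.5. Mrpl33, a counterpart of the small bacterial protein L33, was highest at 78.6 FPKM, followed by Mrpl52 at 67.5 and Mrps21 at 61.1. At the low end were Mrps25 at 2.80 FPKM, Mrps17 at 1.42 and Mrpl36 at 0.0775. Length decides part of that order: with the median transcript length in place of the union of exons, Mrps17 came to 9.80 FPKM and went from rank 77 to rank 67. By that length Mrpl20 went from 40.1 to 75.2 FPKM and from rank 10 to rank 2, and Mrps21 came to rank 4. Exon bases were shared with a neighbouring gene in 18 of the 78 genes, up to 58.2% in Mrps25, where reads of the neighbours cannot be told apart if strand was not used in counting.

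From pre-proB to proB in control cells, 68 of the 77 tested genes rose and 2 fell (edgeR quasi-likelihood, Benjamini-Hochberg adjusted p below 0.05). Among all 13650 genes tested, 36.2% were called higher, 36.8% lower and 73% in either direction. The median log2 fold change of the 77 genes was 0.62, within a range from -0.27 to 1.37, and the median of all genes was 0.00. Libraries of the stages did not overlap in 71 genes higher in proB and 4 lower, against 42% and 45.6% of all genes. The changes were modest in size: the 68 genes that rose had a median of 1.62-fold, and 6 of them exceeded a log2 change of 1.

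Mrps22 (chr9:98588730-98601679, GRCm38, minus strand), a mitochondria-specific small-subunit gene mutated in human mitochondrial disease, changed most. The pre-proB libraries held 12.4 and 12.8 CPM of it and the proB libraries 33.2 and 30.8, which is 2.59-fold higher (log2 1.37 ± 0.10 SE, edgeR quasi-likelihood with Benjamini-Hochberg adjusted p = 3.68e-06). Mrps27, which encodes a pentatricopeptide repeat protein of the small subunit, rose from 11.9 and 13.4 to 28.5 and 31.3 CPM, 2.42-fold. Reads of Mrps27 are less certain, since 22.6% of its exon bases overlap a noncoding gene on the opposite strand. Both genes were low in each pre-proB library and clearly apart in proB.

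Mrpl12 (chr11:120484637-120488754, plus strand) encodes the counterpart of the bacterial stalk protein L7/L12 and is also known to bind the mitochondrial RNA polymerase. Its level went from 25.1 and 19.2 to 48.1 and 51.3 CPM, a log2 change of 1.20 ± 0.12 (edgeR quasi-likelihood with Benjamini-Hochberg adjusted p = 1.85e-05). The replicates of control pre-proB differed more for Mrpl12 than for Mrps22, yet both lay far below proB. Mrps5, whose product is part of the decoding region of the small subunit, rose from 20.5 and 20.4 to 39.7 and 38.8 CPM, 1.96-fold, and Mrpl18, which encodes the counterpart of bacterial L18, moved from 54.4 and 55.8 to 97.3 and 91.7 CPM.

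Mrpl49, a mitochondria-specific large-subunit gene, had the lowest p of the 77 in this comparison. Its level went from 35.4 and 37.9 CPM to 81.3 and 82.3, a log2 change of 1.19 ± 0.06 (edgeR quasi-likelihood with Benjamini-Hochberg adjusted p = 5.27e-07). Mrpl49 (chr19:6053630-6057755, minus strand) starts 59 bases from the cytosolic ribosomal protein gene Fau on the other strand, and 5.16% of its exon bases overlap Syvn1.

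The genes that fell did so by little. Mrpl33 went from 40.6 and 42.4 to 33.3 and 34.0 CPM (log2 -0.27 ± 0.08, edgeR quasi-likelihood with Benjamini-Hochberg adjusted p = 0.0128). Mrps16, a small-subunit counterpart of bacterial S16, went from 36.8 and 37.3 to 30.7 and 30.8 CPM (log2 -0.23 ± 0.09, edgeR quasi-likelihood with Benjamini-Hochberg adjusted p = 0.0456). The call of Mrps16 was lost in 6 of 16 alternatives: with total-count scaling (edgeR quasi-likelihood, Benjamini-Hochberg adjusted p = 0.113), with DESeq2 (0.0940), without immunoglobulin genes (0.0553) and without control pre-proB replicate 2 or either proB library, and that of Mrpl33 was lost without control proB replicate 1 (0.0859). The 7 genes that did not pass were Mrpl4, Mrpl24, Mrpl52, Mrpl58, Mrps6, Mrps17 and Mrps34, with log2 fold changes from -0.19 to 0.39.

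**Figure D2:**
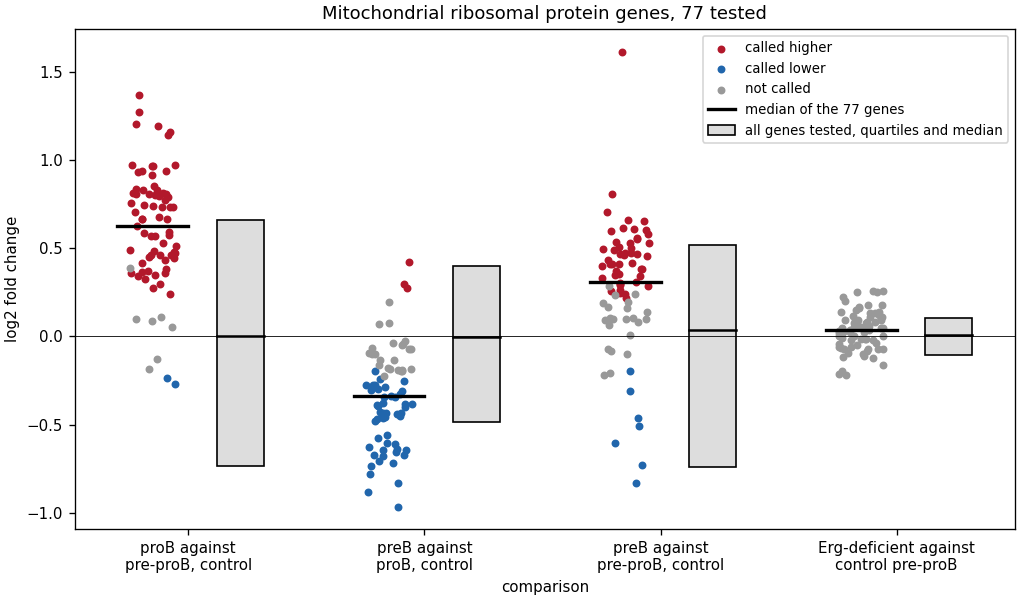
Log2 fold change of each of the 77 genes tested in the 4 comparisons (points, coloured by the call at an adjusted p below 0.05) with their median (thick line), beside the quartiles and median of all genes tested (box). The points lie mostly above 0 for proB against pre-proB, mostly below 0 for preB against proB, and within 0.26 of 0 for Erg-deficient against control pre-proB.

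From proB to preB, most of the genes fell. Of the 77, 50 fell and 3 rose, where 29.9% of all genes were called lower, 29% higher and 58.9% in either direction. The median log2 fold change was -0.34 against 0.00 for all genes, and the largest fall was 0.97 on the log2 scale. This comparison and the previous one share the proB libraries, so that a high or low proB value enters both with opposite signs. The count depended on the preB libraries: without control preB replicate 1 there were 33 calls in place of 53, 31 of them lower. Replicate 1 was the higher of the preB libraries in 11 of the 77 genes, and its median difference from replicate 2 was -0.11 (log2).

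Mrps15 (chr4:126046928-126055536, plus strand), the counterpart of bacterial S15, fell most, from 41.0 and 47.0 CPM in proB to 21.1 and 23.7 in preB, 1.95-fold lower (log2 -0.97 ± 0.10, edgeR quasi-likelihood with Benjamini-Hochberg adjusted p = 7.67e-05). Its preB level also lay below both pre-proB libraries, at 34.6 and 35.6 CPM. Mrpl42, a mitochondria-specific large-subunit gene, fell from 54.3 and 63.0 to 29.8 and 33.5 CPM, back near its pre-proB values of 27.4 and 27.0. Mrpl15, Mrpl19 and Mrpl2 encode large-subunit proteins with bacterial counterparts, the last near the peptidyl transferase centre, and fell by 0.64, 0.60 and 0.61 (log2). Mrpl19 stood at 49.1 CPM in both proB libraries and at 31.9 and 32.4 in preB, beside 32.1 and 31.2 in pre-proB. Mrpl2 went from 45.7 and 47.9 CPM in proB to 29.9 and 31.0 in preB, beside 27.7 and 25.3 in pre-proB. For Mrpl19, 39.2% of the exon bases overlap Gcfc2 on the opposite strand.

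Mrpl49, Mrpl43 and Mrpl53, all mitochondria-specific genes of the large subunit, rose further in preB. Mrpl49 reached 107 and 111 CPM, a log2 change of 0.42 ± 0.06 from proB (edgeR quasi-likelihood with Benjamini-Hochberg adjusted p = 0.000445). Mrpl43 went from 54.6 and 54.8 to 64.3 and 69.2 CPM, and Mrpl53 from 17.0 and 17.4 to 20.5 and 20.9. The call of Mrpl53 (edgeR quasi-likelihood, Benjamini-Hochberg adjusted p = 0.0351) was lost in several alternatives, among them total-count scaling (0.0709) and DESeq2 (0.166), and that of Mrpl43 was lost without control preB replicate 2 (0.0514). Exon bases of Mrpl43 overlap Twnk, the gene of the mitochondrial DNA helicase, by 27.5%.

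**Figure D3:**
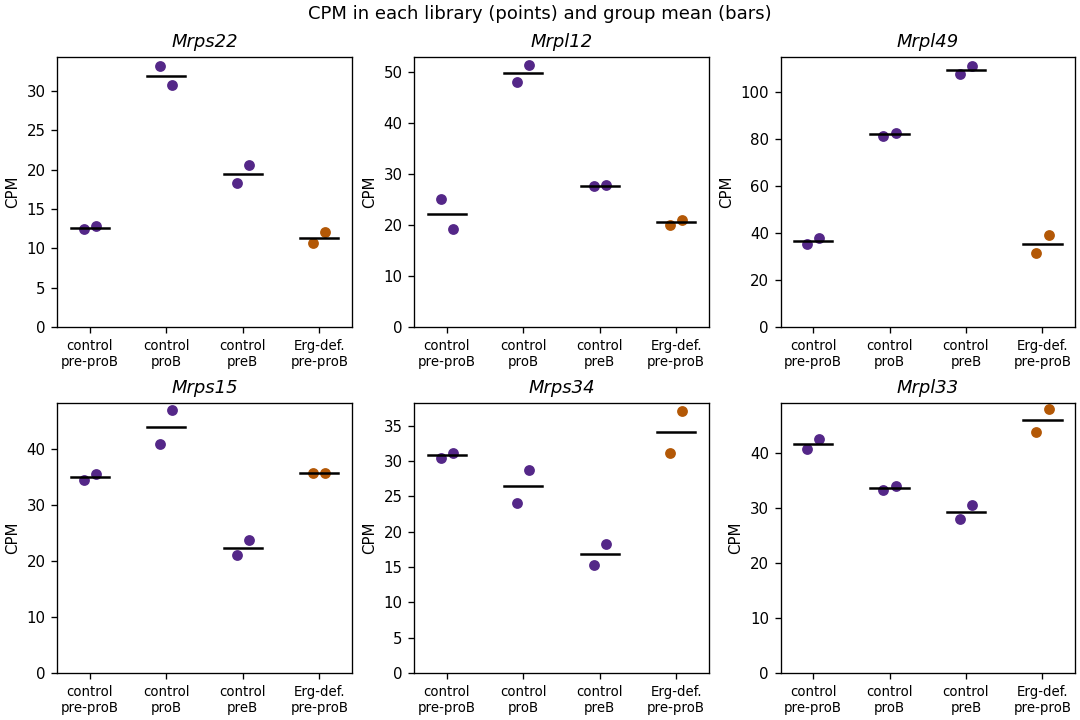
CPM of 6 genes in the 8 libraries (points), with the group mean as a bar and the axis starting at 0. Mrps22 and Mrpl12 peak in proB, Mrpl49 climbs to 107 and 111 CPM in preB, Mrps15 drops to 21.1 and 23.7 CPM in preB, and Mrps34 and Mrpl33 are lowest in preB.

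Most of the genes were also higher in preB than in pre-proB cells. Comparing preB with pre-proB in control cells, 48 genes were higher and 7 lower of the 77, where 36.5% of all genes were called higher, 34.1% lower and 70.7% in either direction. The median log2 fold change was 0.31, against 0.04 for all genes. Mrpl49 was 3.07-fold higher (log2 1.62 ± 0.06, edgeR quasi-likelihood with Benjamini-Hochberg adjusted p = 9.57e-08), the only one of the 77 past a log2 change of 1. Mrps9, counterpart of bacterial S9, had 38.5 and 40.6 CPM in the pre-proB libraries and 60.7 and 64.7 in the preB libraries, with proB above both at 71.7 and 66.6. Mrpl9, counterpart of bacterial L9, went from 56.9 and 56.5 CPM (pre-proB) to 75.6 and 79.3 (preB), and proB lay just below preB at 73.5 and 74.3.

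The genes lower in preB than in pre-proB were Mrps34, Mrps15, Mrpl33, Mrps16, Mrps6, Mrpl52 and Mrpl24. Mrps34 (chr17:24895120-24896289, plus strand), a mitochondria-specific gene needed for small-subunit stability in mice, stood at 30.4 and 31.2 CPM (pre-proB), 24.1 and 28.8 (proB) and 15.3 and 18.3 (preB). Its log2 fold change from pre-proB to preB was -0.83 ± 0.12 (edgeR quasi-likelihood with Benjamini-Hochberg adjusted p = 0.000330). Mrps6, a bacterial S6 counterpart that shares 18.8% of its exon bases with Slc5a3, stood at 9.75 and 11.0 CPM (pre-proB), 9.56 and 11.5 (proB) and 5.00 and 7.15 (preB). Its change from pre-proB to preB (log2 -0.73 ± 0.20, edgeR quasi-likelihood with Benjamini-Hochberg adjusted p = 0.00984) was no longer called without control preB replicate 1 (edgeR quasi-likelihood, Benjamini-Hochberg adjusted p = 0.0705).

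Counted by stage, 67 of the 77 genes had their highest control mean in proB (87.0%), 6 in preB and 4 in pre-proB, and for 60 of the 67 both proB libraries lay above the other 4. Over all 13650 genes, 30.4% had their highest mean in proB and 24% did so with both libraries above the others. A proB peak was as frequent among the cytosolic ribosomal protein genes. There 70 of 82 (85.4%) had their highest mean in proB, 65 of them (79.3% of the 82) with both libraries above the others. For the highest mean, the shares of all genes were 29.2% in preB and 40.4% in pre-proB. The lowest mean was in pre-proB for 64 of the 77 genes (83.1%) and in preB for 13 (16.9%). Of all genes, 38.8% were lowest in pre-proB and 29.9% in preB. These counts rest on the same values as the comparisons and are no further evidence.

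Both subunits moved in the same way at the first step: 45 of 50 large-subunit genes and 23 of 27 small-subunit genes rose from pre-proB to proB, with median log2 fold changes of 0.67 and 0.59. At the second step 34 large-subunit and 16 small-subunit genes fell, with medians of -0.36 and -0.28. Genes with a bacterial counterpart and mitochondria-specific genes were likewise close, with 38 of 44 and 30 of 33 higher in proB and medians of 0.67 and 0.51. Mrps18a and Mrps18b, further copies of the S18 family, were counted with the latter. The difference between these groups of genes was not tested. Leaving out the genes with shared exon bases, 53 of 60 rose and 2 fell at the first step, and 39 fell and 1 rose at the second. The shares of all genes called were 36.2% higher and 36.8% lower at the first step, and 29% higher and 29.9% lower at the second.

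Members with particular roles followed the majority or departed from it as follows. Mrpl3, Mrpl10 and Mrpl11 encode counterparts of bacterial L3, L10 and L11, of which the last 2 belong to the base of the stalk that Mrpl12 forms. Their log2 fold changes in proB against pre-proB were 0.68, 0.33 and 0.81, all called. Mrpl10 kept 58.5 and 61.2 CPM in preB after 61.8 and 62.2 in proB, and its change of -0.04 was not called, whereas Mrpl3 and Mrpl11 fell by 0.43 and 0.34. Mrpl44, which encodes a protein with a ribonuclease III fold, and Mrpl41 rose by 0.45 and 0.49 and then fell by 0.31 and 0.38.

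Mrpl58, or Ict1, encodes a peptidyl-tRNA hydrolase built into the large subunit that can release stalled ribosomes. Its level was 25.3 and 27.2 CPM in control pre-proB and 25.5 and 28.7 in Erg-deficient pre-proB, with 26.6 and 28.3 for proB and 23.1 and 24.5 for preB. These ranges overlapped between pre-proB and proB, and the gene was not called in any comparison. Mrps12, whose product lies in the decoding centre, rose at the first step (log2 0.46) and was not called at the second (-0.22).

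The 3 paralogs of bacterial S18 differed in their course. Mrps18a stood at 25.9 and 22.4 CPM (pre-proB), 48.9 and 43.7 (proB) and 27.7 and 31.2 (preB). Mrps18b ran lower, at 8.53 and 7.11, 11.5 and 12.7, and 7.50 and 7.77 CPM. Mrps18c was at 24.1 and 21.2, 36.2 and 37.5, and 34.1 and 30.5 CPM. All 3 rose at the first step, Mrps18a and Mrps18b fell at the second (-0.64 and -0.66), and Mrps18c was not called there (-0.18, 95% interval -0.39 to 0.02). Per length, mean levels over the libraries were 29.7 FPKM for Mrps18a, 7.96 for Mrps18b and 30.7 for Mrps18c. Mrps30, the other large-subunit gene with a small-subunit name, rose by 0.77 and was not called at the second step.

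Other parts of mitochondrial translation were counted from lists written with earlier results of these data known. The 5 ribosomal subunit genes with other names, Dap3, Ptcd3, Chchd1, Aurkaip1 and Gadd45gip1, all rose in proB (median log2 0.79), and 4 fell in preB. Of 10 translation factor genes, 5 rose and 2 fell at the first step. Among all genes, 36.2% were called higher and 36.8% lower at that step, and 29.9% lower at the second. Tufm and Gfm1, which encode the elongation factors EF-Tu and EF-G1, rose by 0.86 and 1.03. Initiation factor gene Mtif2 and the formyltransferase gene Mtfmt fell by 0.19 and 0.23, calls that were lost with total counts, with DESeq2 and without either proB library.

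Of 23 assembly factor genes of the mitochondrial ribosome, 14 were not called in proB, 7 were higher and 2 lower, with a median of 0.10. The share called higher, 30.4%, was near the 36.2% of all genes. Rcc1l and Noa1 rose by 0.98 and 0.89, while Mettl17 fell by 0.66 and rose again by 0.59 in preB. Among 20 genes of mitochondrial aminoacyl-tRNA synthetases and the amidotransferase, 13 rose (65%) and 3 fell (15%). Wars2, which charges tryptophan tRNA, was among the 3, at -1.35. Of 10 genes of mitochondrial transcription and DNA maintenance, 7 rose (70%) and 1 fell (10%). At this step 36.2% of all genes were called higher and 36.8% lower. Polg, the catalytic subunit of the mitochondrial DNA polymerase, rose at both steps (1.21 and 0.46), and Tfam rose in proB (0.62) and held its level in preB (0.05, not called).

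The mitochondrial rRNAs followed another order than the protein genes. The 12S gene mt-Rnr1 stood at 219 and 226 CPM (pre-proB), 249 and 259 (proB) and 302 and 356 (preB). The 16S gene mt-Rnr2 was at 376 and 361, 547 and 558, and 651 and 744 CPM. Both were called higher at each step, with log2 changes of 0.23 and 0.62 and then of 0.38 and 0.34, whereas 50 of the 77 protein genes fell at the second. The first call of mt-Rnr1 was lost without any 1 of the pre-proB or proB libraries, and the second call of mt-Rnr2 without control proB replicate 1 or control preB replicate 2. The libraries were prepared for mRNA, and how much rRNA they hold beside what the cells hold is not known.

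Among 9 genes of nuclear regulators of mitochondrial genes, 6 rose, 1 fell and 2 were not called in proB. The shares of all genes called were 36.2% higher and 36.8% lower. Myc, which drives ribosome production and growth, stood at 20.5 and 14.4 CPM (pre-proB), 168 and 175 (proB) and 20.1 and 23.6 (preB), so that proB was far above the other stages. Pprc1, a coactivator of the PGC-1 family, rose by 0.94 and fell by 1.21. Nrf1, Gabpa and Gabpb1 rose by 0.69, 0.37 and 1.12 and were not called at the second step. The part of these regulators in the levels was not tested.

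Cytosolic ribosomal protein genes were set beside the mitochondrial ones as the nearest family. Of 82 tested, 59 rose and 4 fell in proB (median log2 0.39), and 62 fell and 1 rose in preB (-0.36). Across all genes, 36.2% were called higher and 36.8% lower at the first step, and 29% and 29.9% at the second. From pre-proB to preB, 10 were higher and 7 lower, with a median of 0.03, where the mitochondrial genes had 48 higher and a median of 0.31. In that comparison 36.5% of all genes were called higher and 34.1% lower. The difference between the families was not tested. The cytosolic genes summed to 39535 and 40714 CPM in control pre-proB and 40248 and 45293 in Erg-deficient pre-proB, with 48828 and 51128 for proB and 36139 and 40842 for preB. All 15 proliferation genes rose in proB (median log2 2.15) and fell in preB (-0.61), and stayed above pre-proB (1.52).

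**Figure D4:**
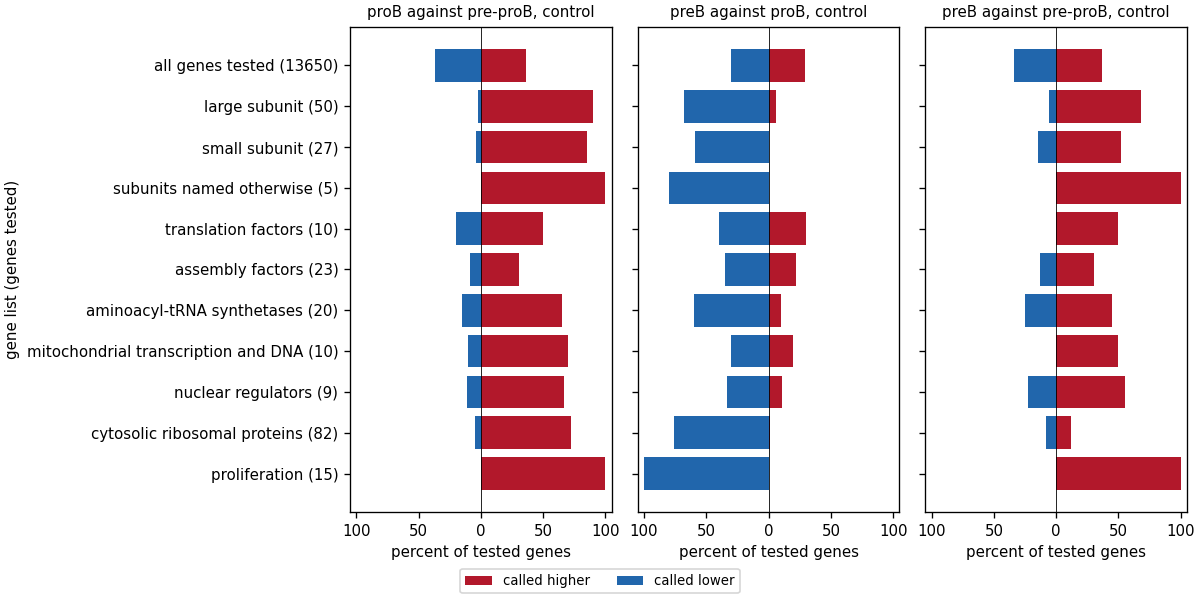
Share of the tested genes of each list called higher (red, to the right of 0) and lower (blue, to the left) in the 3 stage comparisons, with the number tested in parentheses. Both subunits stand at 85.2% or more higher for proB against pre-proB, where all genes tested are nearly even at 36.2% higher and 36.8% lower.

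Loss of Erg was compared within the pre-proB gate. None of the 77 mitochondrial ribosomal protein genes was called between Erg-deficient and control pre-proB cells by edgeR, where 1.16% of all 13005 genes tested were called, 0.215% higher and 0.946% lower. At an unadjusted p below 0.05 there was 1 gene, where 12.5% of all genes passed. The median log2 fold change was 0.04 against 0.01 for all genes, and the values ran from -0.22 to 0.26. Above 0 were 50 of the 77 and below it 27, a larger share above 0 than the 51.6% of all genes. This difference was not tested. DESeq2 and limma-voom called none of the 77 either. The 95% interval of the log2 fold change lay within 0.5 of 0 for 68 of the 77 genes, and within 0.75 for all of them, with a median half-width of 0.24. Changes of over 1.41-fold in either direction therefore lay outside the interval of those 68 genes, whereas for 16 of the 77 the interval lay within 0.25 of 0.

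Mrpl52 (chr14:54426909-54429750, plus strand), a mitochondria-specific large-subunit gene, had the lowest p. It was at 32.7 and 33.9 CPM in control and 39.2 and 38.1 in Erg-deficient pre-proB (log2 0.20 ± 0.07, edgeR quasi-likelihood with Benjamini-Hochberg adjusted p = 0.286). The libraries of the genotypes did not overlap for this gene, a pattern seen upwards in 23 of the 77 genes and downwards in 7. Upwards this was a larger share than the 23.7% of all genes, and downwards a smaller one than their 21%. Mrpl53 was at 13.6 and 14.2 CPM against 16.6 and 17.0, and Mrpl30 at 36.7 and 39.3 against 41.2 and 45.1. On the other side, Mrps5 was at 20.5 and 20.4 CPM against 18.6 and 17.4, Mrps11 at 15.7 and 14.9 against 13.8 and 12.7, and Mrps22 at 12.4 and 12.8 against 10.7 and 12.1. None of these passed the test.

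Some markers of the cells in the gate differed between the genotypes. Summed B lineage markers were 1476 and 762 CPM in control and 394 and 392 in Erg-deficient pre-proB, and the 4 NK markers 15.9 and 16.5 against 64.6 and 113, with 6 of 8 B lineage markers called lower and 3 of 4 NK markers called higher. In this comparison 0.215% of all genes were called higher and 0.946% lower. The 6 myeloid markers, of which 1 was called lower, summed to 182 and 149 CPM against 113 and 81.0. None of the 5 plasmacytoid dendritic markers was called, at 8628 and 9197 against 9813 and 10286 CPM in sum. Their part in the values of the ribosomal protein genes was not tested. Of the other mitochondrial lists, translation factors, assembly factors, synthetases and transcription and DNA maintenance genes held no called gene. Over all genes the share called was 1.16%, so a count of 0 in lists this short does not set them apart. Myc was at 20.5 and 14.4 CPM against 6.25 and 5.81 (log2 -1.55 ± 0.21, edgeR quasi-likelihood with Benjamini-Hochberg adjusted p = 0.0293). That call was lost with limma-voom (Benjamini-Hochberg adjusted p = 0.0905) and without Erg-deficient pre-proB replicate 1 (edgeR, 0.189) or 2 (0.186).

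The ETS letters shown above were set beside these values. Among the genes with a promoter sequence, the 26 with CCGGAAG had a median log2 fold change of 0.06 in Erg-deficient cells and the 42 without it 0.04, and neither group held a called gene. Of all tested genes, 5 of 2061 with the letters were called lower and 0 higher, beside 61 and 18 of 7988 without them. For proB against pre-proB the medians were 0.48 with the letters and 0.72 without, with 22 of 26 and 39 of 42 genes higher. Over all tested genes, 823 of 2074 with the letters and 2981 of 8338 without were called higher at that step. Their medians were 0.05 and -0.03, in the opposite order. Mrps22 and Mrpl52, whose sequences are shown, had log2 fold changes of 1.37 and 0.09 at that step. The difference between genes with and without the letters was not tested.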

How the data were processed

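The authors sequenced RNA of sorted cells as paired-end reads, trimmed these with Trim Galore, aligned them to mm10 with STAR and assigned them to Entrez genes with featureCounts. The deposited values are whole-number counts per gene, without normalisation. No source used here gives the versions of STAR and featureCounts, the strand setting or how multi-mapping reads were handled. The submitters' processing notes name CASAVA 1.8.2.

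Symbols came from RefSeq for 25275 identifiers and from GENCODE vM21 for 18. The other 1886 identifiers, with 0.571% of the counts, were kept in library sizes and tests. Tests used edgeR 4.0.16 in R 4.3.3 (TMM, legacy glmQLFit, glmQLFTest), a later version of the tool in the study's methods, after a filter of 0.5 CPM in 2 libraries over all libraries of a fit, where the study filtered by stage. The 6 control libraries formed 1 fit and the 4 pre-proB libraries another, a choice made here. Calls were made at a Benjamini-Hochberg adjusted p below 0.05 over all genes. SE was derived from the F statistic, and intervals are at 95%. FPKM used the union of GENCODE exons. Floors from counts cover counting error only. The procedure was tested on simulated data. Replicates of every group differed by more than counting noise.

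Members and lists were chosen with earlier results of these data known. Named members are the 5 called with the lowest p in each comparison and direction whose libraries do not overlap, the 3 lowest p each way where fewer than 3 were called, the 3 highest and lowest FPKM, members that failed the filter, and 15 with set roles. Other named genes, the motif letters and the printed promoters were chosen after values were seen. The alternatives were DESeq2 1.42.0 (its size factors or its test), total counts, no filter or 1 CPM, limma-voom (limma 3.58.1), edgeR's version 4 method, all 8 libraries in one fit, no immunoglobulin genes, a replicate block, and each library left out. Figures were drawn with matplotlib 3.10.9.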

Additional observations from a re-analysis of the deposited data

How the results depend on the processing

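The count of mitochondrial ribosomal protein genes called stayed within 1.5 times the reported value under every alternative except 1. For preB against proB, leaving out control preB replicate 1 gave 33 in place of 53. With each library left out in turn, and the lone library taken to vary as other groups do, the counts were 61 to 70 for proB against pre-proB, 33 to 56 for preB against proB, 39 to 54 for preB against pre-proB and 0 for the genotypes. The other alternatives gave 66 to 71, 44 to 59, 46 to 58 and 0. Of the 70, 53 and 55 genes called in the stage comparisons, 59, 32 and 33 kept their call under all 16 alternatives, and none of them changed direction. Scaling moved the median of all genes by less than 0.1 (log2). With total counts the genes' median in the genotype comparison went from 0.04 to 0.00, with 40 of 77 above 0 in place of 50.

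With the replicate number as a block, 70, 55, 55 and 0 of the genes were called. Nothing says that a number marks a mouse, and the deviations of same-numbered libraries correlated at 0.150, 0.0230 and 0.0715 between control stages and at 0.0116 between genotypes, so the libraries were not treated as paired. The number of all genes called between genotypes, 151, was 279 without a filter, 400 with DESeq2, 41 with limma-voom, 88 with edgeR's version 4 method, 442 with all 8 libraries in one fit, 265 with the block, and 10 to 401 with a library left out (10 and 16 without Erg-deficient replicate 2 and 1, 401 without control pre-proB replicate 2). The cause was not tested. Mrpl36, with at most 3 counts in a library, lay too near the detection limit for a comparison; the cause of its low count was not tested.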
